A study of Homo sapiens with 6 samples.

Results

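The genes described here encode the subunits of the proteasome, its caps and its PSM-named assembly factors, measured as RNA in LoVo, a cell line established from a human colorectal adenocarcinoma. Members were all symbols of the table that start with PSMA, PSMB, PSMC, PSMD, PSME, PSMF or PSMG, without the inducible immunoproteasome subunits PSMB8, PSMB9 and PSMB10. They were 46 of the 19223 symbols listed. Where a symbol had several transcripts, the most abundant across all 6 libraries stood for it. The rule used names and not measured differences.

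The 3 Control libraries came from LoVo cells given vehicle, and the 3 DCC-2036 libraries from LoVo cells given 2.5 μM DCC-2036 (rebastinib, a tyrosine kinase inhibitor) for 48 h by the labels, while a legend in the study's text gives 24 h. Both groups are unmodified cells of the same line, so the results hold for a single tumour line in culture. No label says whether the libraries of a group came from separate cultures, so p-values measure only the spread between these libraries. Each value is a normalized signal for a transcript in a library, by a method not given in the sources used here. Library totals of these values ran from 38997229 to 40587145 in Control and from 43279603 to 48023306 with DCC-2036. Values rescaled to equal totals are therefore given for the medians and sums of core and cap and for members' calls lost or gained. Rescaled medians are not given for the related genes or for members split by promoter word. No counts were given, so depth is unknown.

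The line was checked against markers of colonic epithelium. Of 9 epithelial markers, 2 (VIL1 and CEACAM5) were below 20 in all 6 libraries, and the summed level of the 9 ran from 104483 to 114998 in Control and from 148337 to 188447 with DCC-2036, with KRT8 as the largest part (means of 59932 and 108237). Of the list KRT8 and CDH1 rose, KRT20 fell with a log2 change of -1.15 ± 0.21 (SE, n = 3 per group, limma adjusted p = 0.00427), and CDX2 and KRT19 were at -0.09 and 0.04 without passing. Of 7 markers of blood, stromal, endothelial and liver cells, 5 were below 20 in every library and 1 of those was at 0 throughout. Their summed level ran from 368 to 405 in Control and from 433 to 562 with DCC-2036, most of it COL1A1. The part of these markers in the results below was not tested.

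The proteasome degrades proteins that carry ubiquitin chains. Its barrel, the 20S core, has outer rings of alpha subunits and inner rings of beta subunits, and 3 of the beta subunits carry the proteolytic sites. The 19S cap binds ubiquitin, removes it and unfolds the substrate with a ring of ATPases. Since each particle needs its subunits in fixed proportions, their genes are known to be expressed together, and the transcription factors NRF1 (gene NFE2L1) and NRF2 (gene NFE2L2) are known to act on many of them through antioxidant response elements. Dedicated chaperones build the alpha ring and the ATPase ring and are absent from the finished particle.

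The proteasome genes did not move as a block. Of the members, 44 reached 10 in 3 or more libraries and were tested. Among these, 8 rose and 7 fell at an adjusted p under 0.01 in limma, which is 34.1% of those tested. Over all 12725 symbols tested, 41.9% were called (19.2% higher and 22.7% lower). At an adjusted p under 0.05, 16 members rose and 13 fell, or 65.9% of those tested, where 62.2% of all symbols were called. The share of members called was thus below that of all symbols at the first threshold and above it at the second, and neither difference was tested. The 8 that rose were PSMA1, PSMA6, PSMB7, PSMD2, PSMD11, PSMD9, PSMG4 and PSMF1. The 7 that fell were PSMA4, PSMB5, PSMC3, PSMD4, PSMG1, PSME3 and PSMC3IP. After rescaling to equal library totals the split was 2 higher and 12 lower, where 40.1% of all symbols were called. The median log2 change over all symbols was then -0.29 in place of -0.09.

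The median log2 change of the 44 members was 0.15 (-0.0494 with equal totals), within a range from -1.28 to 1.22. The members' changes had an SD of 0.55 around their mean, against 0.96 for all symbols. The 3 Control and 3 DCC-2036 values did not overlap for 36 of the 44 members (20 higher and 16 lower), or 81.8%, against 71.1% of all symbols. A log2 change of at least 1 in a called member was seen upwards in PSMD9 (background 7.42% of symbols) and downwards in PSMC3, PSMG1 and PSME3 (background 15.2%). In bulk RNA, fewer cells of a kind and less RNA per cell cannot be told apart. The remaining 2 members, PSMA8 and PSMB11, are known as a testis and a thymus subunit of the core and were listed at 0 in all 6 libraries.

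**Figure D1:**
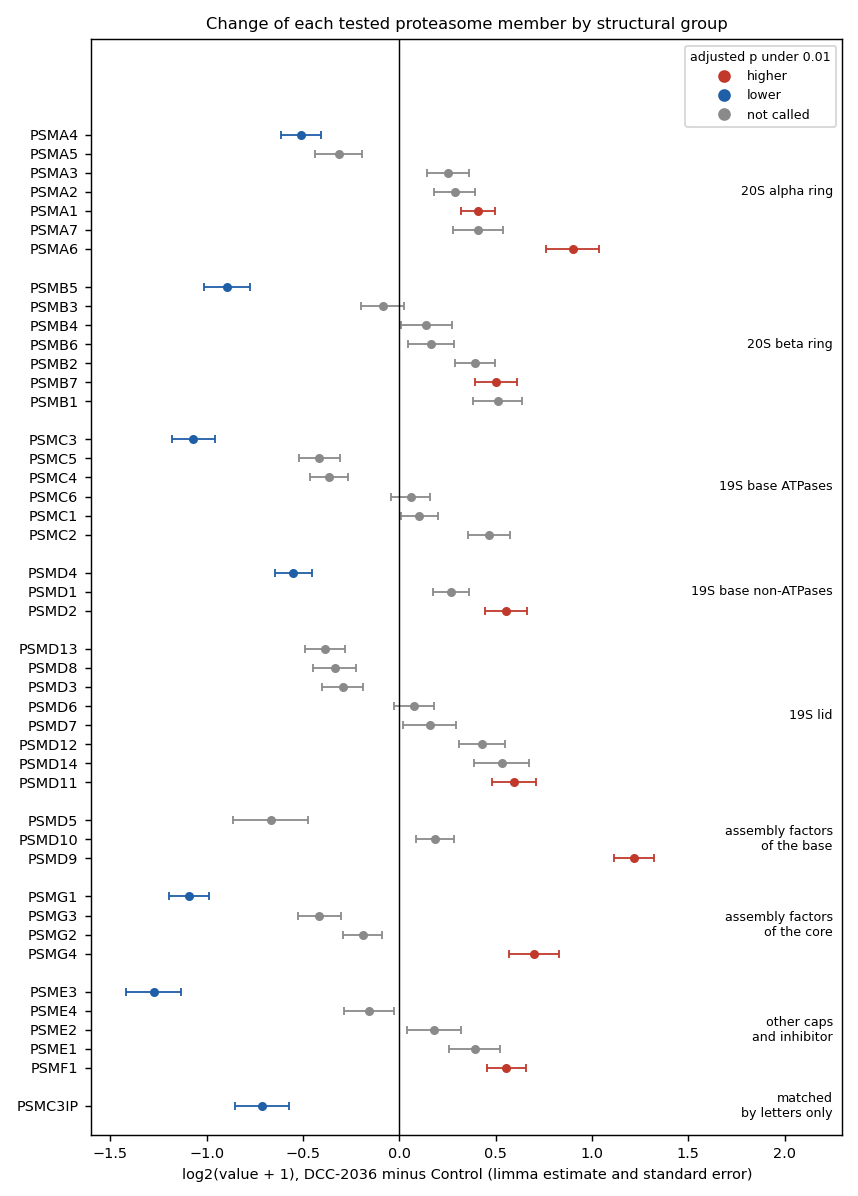
Log2 change of each of the 44 tested members, DCC-2036 minus Control on log2(value + 1), as the limma estimate with its standard error (n = 3 libraries per group), in structural groups. In deposited units, members called higher and lower sit side by side in most groups, for example PSMB7 at 0.50 and PSMB5 at -0.90 within the beta ring. With equal totals the call of PSMB7 is lost, leaving 0 higher and 1 lower in the beta ring, while the alpha ring keeps 1 of each.

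Promoter sequences are shown first for members that carried the largest changes of their ring, cap or chaperone family, since their matches to the words searched are described further on. Each line gives the 250 bases before the most upstream start in RefSeq (GRCh38.p14), 5′ to 3′ on the strand of the gene. Capitals mark matches to the SP1 box GGGCGG, the CCAAT box CCAAT, the antioxidant response element TGACNNNGC, the E-box CACGTG, the C/EBP-ATF element TGATGNAA and the heat shock element GAANNTTC, each searched on both strands. The windows are chr14:35292067-35292316, plus strand for PSMA6, chr12:121888540-121888789, plus strand for PSMD9 and chr17:32444260-32444509, plus strand for PSMD11, all of which rose. Those of the members that fell are chr14:23035221-23035470, minus strand for PSMB5, chr11:47426440-47426689, minus strand for PSMC3 and chr17:42833147-42833396, plus strand for PSME3.
PSMA6: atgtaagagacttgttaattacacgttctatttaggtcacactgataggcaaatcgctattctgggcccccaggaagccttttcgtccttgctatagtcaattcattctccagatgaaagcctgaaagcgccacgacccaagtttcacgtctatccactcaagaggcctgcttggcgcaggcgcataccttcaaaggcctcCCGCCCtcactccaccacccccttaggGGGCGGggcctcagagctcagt
PSMD9: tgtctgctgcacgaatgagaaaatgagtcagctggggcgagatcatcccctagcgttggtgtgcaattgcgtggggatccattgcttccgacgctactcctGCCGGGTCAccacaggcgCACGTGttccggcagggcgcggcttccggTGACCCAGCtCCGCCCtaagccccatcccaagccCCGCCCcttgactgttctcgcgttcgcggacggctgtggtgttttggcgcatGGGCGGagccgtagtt
PSMD11: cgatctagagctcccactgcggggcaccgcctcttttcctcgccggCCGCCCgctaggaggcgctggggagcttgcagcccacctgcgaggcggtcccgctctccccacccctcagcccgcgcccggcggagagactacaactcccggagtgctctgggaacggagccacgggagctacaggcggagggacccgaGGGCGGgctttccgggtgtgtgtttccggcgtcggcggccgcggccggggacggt
PSMB5: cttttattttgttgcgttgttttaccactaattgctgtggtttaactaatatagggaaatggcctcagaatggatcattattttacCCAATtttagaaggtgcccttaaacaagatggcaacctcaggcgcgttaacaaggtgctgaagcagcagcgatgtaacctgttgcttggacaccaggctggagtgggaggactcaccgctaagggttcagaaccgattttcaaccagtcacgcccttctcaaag
PSMC3: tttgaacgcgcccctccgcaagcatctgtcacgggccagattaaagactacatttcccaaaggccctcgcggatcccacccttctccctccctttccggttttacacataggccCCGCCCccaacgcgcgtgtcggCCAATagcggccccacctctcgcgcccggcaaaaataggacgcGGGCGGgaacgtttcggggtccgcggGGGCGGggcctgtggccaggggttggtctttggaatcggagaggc
PSME3: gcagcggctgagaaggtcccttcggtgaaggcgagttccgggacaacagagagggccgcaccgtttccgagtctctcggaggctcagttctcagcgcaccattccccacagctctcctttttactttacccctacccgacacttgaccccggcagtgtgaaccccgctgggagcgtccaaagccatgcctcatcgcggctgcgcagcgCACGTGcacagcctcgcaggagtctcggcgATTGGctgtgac

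The alpha ring gates the entrance of the core. Of its 7 tested subunits, 2 rose and 1 fell, with a median log2 change of 0.29 (0.0896, with 1 higher and 1 lower, with equal totals). PSMA6 stands at chr14:35278633-35317493, plus strand (GRCh38, GENCODE 29) and had values of 2487, 2841 and 3104 with vehicle and 4809, 4978 and 5951 with DCC-2036. All 3 DCC-2036 values lay above all 3 Control values, and the log2 change was 0.90 ± 0.14 (SE, n = 3 per group, limma adjusted p = 0.00214). GENCODE lists 4 pseudogenes of PSMA6 and a read-through gene on the same strand, and how reads shared with them were assigned is not given in the sources used here.

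PSMA4 went the other way from most of its ring, with 3922, 4290.2 and 3994 with vehicle and 3054, 2848 and 2675 with DCC-2036. Its groups did not overlap, and the log2 change was -0.51 ± 0.10 (SE, n = 3 per group, limma adjusted p = 0.00593). PSMA1 rose by 0.41 ± 0.09 (SE, n = 3 per group, limma adjusted p = 0.00784), a call lost with equal totals (0.21, limma adjusted p = 0.0793). PSMA2, PSMA3, PSMA5 and PSMA7 did not pass the test, with log2 changes of 0.29, 0.25, -0.32 and 0.41. Of these, PSMA5 was the only subunit with a value below 0.

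The beta ring holds the 3 proteolytic sites, chymotrypsin-like in PSMB5, caspase-like in PSMB6 and trypsin-like in PSMB7. These 3 subunits did not move alike. PSMB5 (chr14:23016543-23035230, minus strand) had values of 3479.7, 4087 and 4249 with vehicle and 2228, 2122 and 1981 with DCC-2036. Every DCC-2036 value was below every Control value, and PSMB5 changed by -0.90 ± 0.12 (SE, n = 3 per group, limma adjusted p = 0.00134). PSMB7 had 3276, 3657 and 3769.9 with vehicle and 4773, 4999 and 5366 with DCC-2036. PSMB7 rose without overlap, by 0.50 ± 0.11 (SE, n = 3 per group, limma adjusted p = 0.00752), a call lost with equal totals (0.30, limma adjusted p = 0.0275). PSMB6 had 2317, 2637 and 2774 with vehicle and 2631, 2947 and 3075 with DCC-2036. The values of PSMB6 overlapped between the groups, with a log2 change of 0.16 ± 0.12 (SE, n = 3 per group, limma adjusted p = 0.264) that was -0.0342 with equal totals.

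Set against each other within each library, where any scaling of a library cancels, the ratio of PSMB5 to PSMB7 was 1.10 ± 0.03 in Control and 0.420 ± 0.049 with DCC-2036 (SD, n = 3). The ratio of PSMB5 to PSMB6 was 1.53 ± 0.02 in Control and 0.737 ± 0.102 with DCC-2036 (SD, n = 3). The ratio of PSMB7 to PSMB6 was 1.39 ± 0.03 and 1.75 ± 0.06 (SD, n = 3). None of these ratios overlapped between the groups, each with a two-sided exact permutation p = 0.1, the smallest that 3 against 3 allows.

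Among the other beta subunits, which have structural roles, PSMB1 had the highest change, with 4115, 4364 and 4418 with vehicle and 5339, 6164 and 6971 with DCC-2036. Its groups did not overlap, yet the log2 change of 0.51 ± 0.13 (SE, n = 3 per group, limma adjusted p = 0.013) did not pass. PSMB2, PSMB3 and PSMB4 had log2 changes of 0.39, -0.09 and 0.14 and did not pass either, and the last of these turned to -0.0575 with equal totals. Over the 14 tested core subunits together, 3 rose and 2 fell, and the median was 0.27 (0.0715 with equal totals). The summed value of the core was 50965 ± 3044 in Control and 59287 ± 3491 with DCC-2036 (SD, n = 3), a ratio of 1.16. With equal totals, 1 core subunit was called higher and 2 lower, and the ratio of the sums was 1.01.

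Of the 17 subunits of the 19S cap, 2 rose and 2 fell, the median log2 change was 0.08 (-0.12 with equal totals and 0.02 without the first Control library), and the summed value was 77886 ± 3319 in Control and 82291 ± 4744 with DCC-2036 (SD, n = 3), a ratio of 1.06. With equal totals, 0 cap subunits were called higher and 6 lower, and the ratio turned to 0.920. By library in deposited units, the median difference of the cap from the Control mean ran from -0.07 to 0.04 in Control and from 0.01 to 0.12 with DCC-2036. For the core the same medians ran from -0.10 to 0.06 and from 0.17 to 0.40. The difference between core and cap itself was not tested, since subunits of the same libraries are not replicates.

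**Figure D2:**
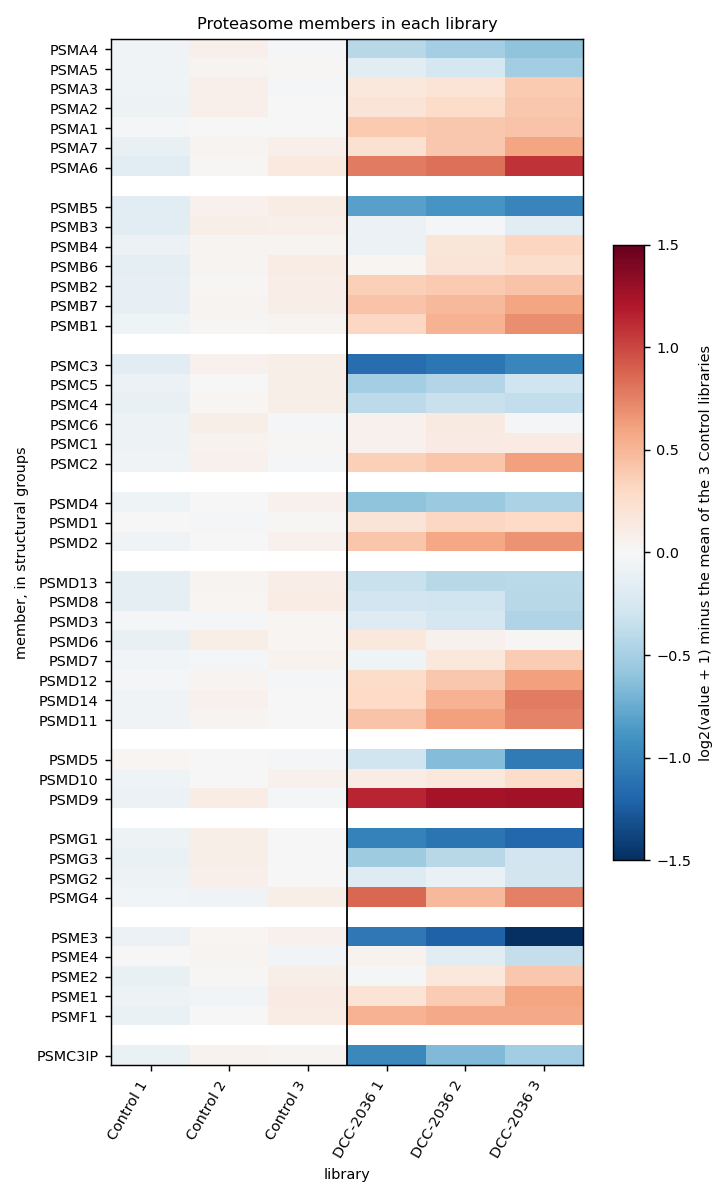
Log2(value + 1) of each tested member in each of the 6 libraries, minus the mean of the 3 Control libraries, in the same order of structural groups. Red and blue rows stand next to each other within the groups, and the 3 DCC-2036 libraries share the colour of a row for members such as PSMA6, PSMB5, PSMC3 and PSMD9.

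The base of the cap is built on a ring of 6 ATPases that pull the substrate in. None of the 6 rose, 1 fell, and their median was -0.15 (-0.35, with 3 lower, with equal totals). PSMC3 (Rpt5, chr11:47418769-47426473, minus strand) had values of 4694, 5473 and 5573 with vehicle and 2369, 2469.7 and 2649 with DCC-2036. Each DCC-2036 library lay below each Control library, and the change was -1.07 ± 0.11 (SE, n = 3 per group, limma adjusted p = 0.000677). PSMC2 (Rpt1) had the highest change of the ring, with 2846, 3083 and 2906 with vehicle and 3786, 3939 and 4496 with DCC-2036. Its groups did not overlap, and the change of 0.46 ± 0.11 (SE, n = 3 per group, limma adjusted p = 0.0106) missed the threshold. PSMC2 shares part of its locus with genes on the opposite strand, DNAJC2 and SLC26A5.

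PSMC4 (Rpt3) and PSMC5 (Rpt6) were at -0.37 and -0.41 without passing, and both were called lower with equal totals. PSMC1 (Rpt2) and PSMC6 (Rpt4) were at 0.10 and 0.06, and both turned below 0 with equal totals (-0.09 and -0.14). The ATPases pair up during assembly. For Rpt5 and Rpt4 the ratio of PSMC3 to PSMC6 was 3.53 ± 0.23 in Control and 1.62 ± 0.16 with DCC-2036 (SD, n = 3). For Rpt1 and Rpt2 the ratio of PSMC2 to PSMC1 was 0.643 ± 0.016 and 0.827 ± 0.065 (SD, n = 3). Both were without overlap. For Rpt3 and Rpt6 the ratio of PSMC4 to PSMC5 was 0.760 ± 0.014 in Control and 0.787 ± 0.059 with DCC-2036 (SD, n = 3), and the groups overlapped (two-sided exact permutation p = 0.4).

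The non-ATPase subunits of the base, PSMD1, PSMD2 and PSMD4, include the docking sites for ubiquitin. PSMD2 (Rpn1), which binds ubiquitin and ubiquitin-like shuttle proteins, had 10503, 10865 and 11429 with vehicle and 14541, 16332 and 17366 with DCC-2036. It rose by 0.55 ± 0.11 (SE, n = 3 per group, limma adjusted p = 0.00551), with all DCC-2036 libraries above all Control libraries, and the call was lost with equal totals (0.36, limma adjusted p = 0.0139). PSMD4 (Rpn10), a receptor for ubiquitin chains, had 4052, 4246 and 4439.9 with vehicle and 2783, 2873 and 3044 with DCC-2036. It fell in every DCC-2036 library, with a change of -0.55 ± 0.10 (SE, n = 3 per group, limma adjusted p = 0.00365). Within a library the ratio of PSMD4 to PSMD2 was 0.388 ± 0.003 in Control and 0.181 ± 0.009 with DCC-2036 (SD, n = 3), without overlap. PSMD1 (Rpn2), a scaffold, was at 0.27 and did not pass.

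The lid holds the deubiquitinase PSMD14 (Rpn11) and its partner PSMD7 (Rpn8) beside scaffold subunits. Of its 8 subunits 1 rose and none fell, with a median of 0.12. With equal totals, none was called higher, 2 were called lower (PSMD13 and PSMD8) and the median turned to -0.0811. PSMD11 (Rpn6) had values of 4344, 4605 and 4525 with vehicle and 6030.3, 6851 and 7551 with DCC-2036. It rose without overlap by 0.59 ± 0.12 (SE, n = 3 per group, limma adjusted p = 0.00532), a call lost with equal totals (0.40, limma adjusted p = 0.0116). PSMD13 (Rpn9) was the lowest, with 4149, 4666 and 4857 with vehicle and 3593, 3397 and 3441 with DCC-2036. Its groups were also apart, but the change of -0.39 ± 0.10 (SE, n = 3 per group, limma adjusted p = 0.0179) did not pass, and it was called lower with equal totals.

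PSMD14 was at 0.53 (limma adjusted p = 0.0174) and PSMD7 at 0.16 (limma adjusted p = 0.344). The ratio of PSMD14 to PSMD7 was 1.52 ± 0.08 in Control and 1.97 ± 0.02 with DCC-2036 (SD, n = 3), without overlap. PSMD3, PSMD8 and PSMD12 did not pass, at -0.29, -0.34 and 0.43, and PSMD8 was called lower with equal totals (-0.53). PSMD6 did not pass at 0.08 and, like PSMD7, turned below 0 with equal totals (-0.12 and -0.04).

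The changes of the 7 assembly chaperones spanned 2.31 on the log2 scale, against 1.97 for the 31 tested subunits of core and cap, a difference that was not tested. Of the chaperones 2 rose and 1 fell, while with equal totals 1 was called higher (PSMD9) and 2 lower (PSMG1 and PSMG3). Of the chaperones of the base, PSMD9, which escorts Rpt4 and Rpt5, is at chr12:121888731-121918297, plus strand and had 703, 807 and 733 with vehicle and 1655, 1780.3 and 1788 with DCC-2036. Its DCC-2036 values were all more than 2-fold the highest Control value, and its change of 1.22 ± 0.10 (SE, n = 3 per group, limma adjusted p = 0.000367) was the highest of all members. WDR66 and AC069503.2, both listed as protein-coding, share part of the PSMD9 locus on the same strand. How reads shared with them were assigned is not given in the sources used here. PSMD5, which escorts Rpt1 and Rpt2, had 1425, 1397 and 1361 with vehicle and 1132, 891 and 668 with DCC-2036. The groups did not overlap, the DCC-2036 libraries spread from 668 to 1132, and the change of -0.67 ± 0.19 (SE, n = 3 per group, limma adjusted p = 0.0234) did not pass. PSMD10 (gankyrin), which escorts Rpt3 and Rpt6, was at 0.19 (limma adjusted p = 0.145) and turned to -0.01 with equal totals.

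The core is started by the dimers PSMG1-PSMG2 and PSMG3-PSMG4, on which the alpha ring forms. PSMG1 (chr21:39174769-39183851, minus strand) had 949.6, 1067 and 1002 with vehicle and 499, 471 and 444 with DCC-2036. Its highest DCC-2036 value was 499 and its lowest Control value 949.6, and the change was -1.09 ± 0.10 (SE, n = 3 per group, limma adjusted p = 0.000479). PSMG4 had low values, 182, 182 and 201 with vehicle and 341, 264 and 318 with DCC-2036. The groups did not overlap, and it rose by 0.70 ± 0.13 (SE, n = 3 per group, limma adjusted p = 0.00419). The call was lost with equal totals (0.50, limma adjusted p = 0.0199) and with transcripts summed (0.57, limma adjusted p = 0.0114). TUBB2B and SLC22A23 lie on the opposite strand within the PSMG4 locus, and whether reads were counted by strand is not given in the sources used here. PSMG2 and PSMG3 were at -0.19 and -0.42 and did not pass, and PSMG3 was called lower with equal totals.

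Within each library, the ratio of PSMG1 to PSMG2 was 1.23 ± 0.01 in Control and 0.656 ± 0.039 with DCC-2036 (SD, n = 3). The ratio of PSMG3 to PSMG4 was 4.75 ± 0.40 in Control and 2.20 ± 0.37 with DCC-2036 (SD, n = 3). In all, 11 partner pairs were compared, picked after values had been seen. The ratios of 10 did not overlap between the groups, where 71.1% of single symbols did not and no reference over other pairs was made, each with an exact permutation p of 0.1, or 0.11 adjusted over the pairs, so that none could reach 0.05 in this design.

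Other particles can cap the core in place of 19S. PSME3, which forms the nuclear PA28γ cap, is at chr17:42824385-42843758, plus strand and had 4672, 5054 and 5190.0 with vehicle and 2355, 2143 and 1709 with DCC-2036. All DCC-2036 values were under those of Control, and its change of -1.28 ± 0.14 (SE, n = 3 per group, limma adjusted p = 0.000803) was the lowest of all members. BECN1 overlaps the PSME3 locus on the opposite strand. PSME1 and PSME2, which make the interferon-inducible PA28αβ cap together, were at 0.39 and 0.18 and did not pass, the latter at -0.02 with equal totals. Their ratio was 1.10 ± 0.04 in Control and 1.27 ± 0.02 with DCC-2036 (SD, n = 3). PSME4 (PA200) was at -0.16 and did not pass.

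PSMF1 (PI31), which binds the core and is known as its inhibitor in vitro, had 2571, 2748 and 2974 with vehicle and 3950.0, 4108 and 4103 with DCC-2036. It rose without overlap by 0.55 ± 0.10 (SE, n = 3 per group, limma adjusted p = 0.00407), a call lost with equal totals (0.36, limma adjusted p = 0.0168). PSMC3IP entered the list by its letters only, since it encodes HOP2, a factor of meiotic recombination. It had 429.6, 479 and 473 with vehicle and 236, 290.0 and 321 with DCC-2036. The groups did not overlap, and the change was -0.71 ± 0.14 (SE, n = 3 per group, limma adjusted p = 0.00544).

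Of the 15 called members, 5 kept their call under every one of 15 other settings of scaling, filter, pseudocount, test, transcript choice and left-out library: PSMD9, which rose, and PSME3, PSMG1, PSMC3 and PSMB5, which fell. They are 1 chaperone of the base, 1 chaperone of the core, 1 ATPase, 1 catalytic subunit and 1 alternative cap. How many of all called symbols kept their call in every setting was not counted, so this count has no background beside it. The share of all symbols called ran from 19.2% to 48.6% over these settings, against 41.9% in the main fit. Over these settings the log2 change of PSMD9 lay between 1.02 and 1.30, that of PSME3 between -1.47 and -1.14, that of PSMG1 between -1.29 and -1.01, that of PSMC3 between -1.27 and -0.99 and that of PSMB5 between -1.09 and -0.81. The other 10 lost the call in some settings: PSMA1 and PSMB7 in 8 each, PSMD2, PSMD11, PSMF1, PSMG4 and PSMC3IP in 7 each, PSMA4 in 6, PSMD4 in 5 and PSMA6 in 2. No called member changed its sign. Of the 8 rises, those of PSMD9 and PSMA6 were the 2 that held with equal totals.

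**Figure D3:**
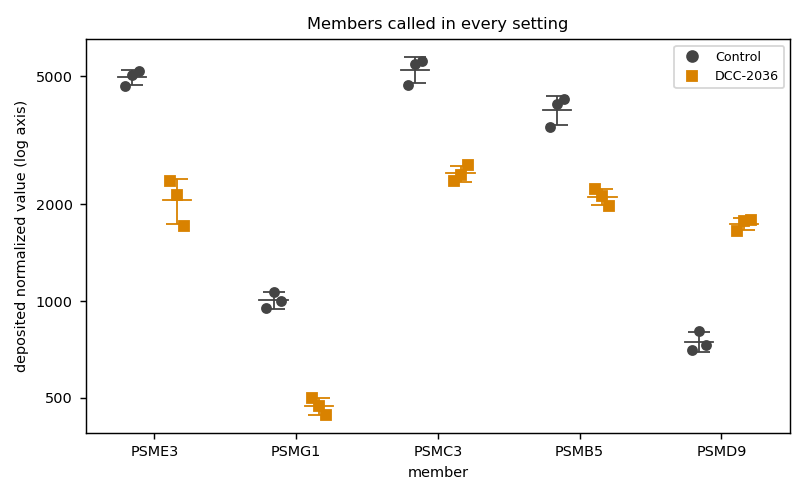
Deposited normalized values (log axis) of the 5 members that kept their call in all 15 other settings, in 3 Control (circles) and 3 DCC-2036 (squares) libraries, with the mean and SD of each group. The groups are apart for each of the 5, as for PSMG1, whose means are 1006 in Control and 471 with DCC-2036.

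Levels of different members were compared per kilobase, with the length of the GENCODE 29 counterpart of each transcript and on the assumption that the deposited values carry no length correction. In Control the assembly factors lay from 269 (PSMD9) to 642 (PSMG3) per kilobase, the tested core subunits from 696 (PSMA5) to 5197 (PSMB4) and the cap subunits from 934 (PSMC6) to 3649 (PSMC5). With DCC-2036 the assembly factors lay from 219 (PSMG1) to 625 (PSMD9) and the tested core subunits from 562 (PSMA5) to 6636 (PSMB1). In Control every assembly factor was below the lowest tested core subunit, and with DCC-2036 PSMD9 (625) and PSMD10 (622) were above it. PSMA4 had no matched length.

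The promoters of the members were searched for 6 words in windows from 250 bases before to 50 after each RefSeq start (GRCh38.p14). RefSeq windows were matched for 40 members, with 49 windows, and PSMA7, PSMB1, PSMB6, PSMB7, PSMD4 and PSMG3 had none. The antioxidant response element TGACNNNGC was in 28.6% of member windows and in 13.3% of all 35116 windows of the table. Among tested genes with a window, 36.8% of the 38 members and 19.5% of all 9917 symbols had it. It was in the promoter of 1 of the 7 matched members that rose (PSMD9, whose window above holds it on each strand), of 2 of 6 that fell and of 11 of 25 tested members that were not called.

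The SP1 box GGGCGG, the binding word of the SP family, was in 69.4% of member windows and 45.0% of all windows. It was found for 7 of 7 members that rose, 4 of 6 that fell and 16 of 25 not called. Among tested genes with a window the order was the opposite, with the box found for 71.1% of the 38 members and 78.0% of all 9917 symbols. Over those symbols it was found for 78.9% of those called higher and 77.6% of those called lower. Of the other words, the C/EBP-ATF element TGATGNAA was in 2.04% of member windows (3.62% of all), the heat shock element GAANNTTC in 4.08% (6.77% of all) and the E-box CACGTG in 6.12% (7.26% of all).

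The CCAAT box, the binding word of NF-Y, was in 42.9% of member windows and 34.6% of all windows. Among tested genes with a window, 19 of the 38 members and 42.9% of all symbols had it. By the calls at an adjusted p under 0.01, it was in the promoter of 6 of the 6 matched members that fell (PSMC3IP, no proteasome gene by function, among them) and of 0 of the 7 that rose, while 13 of 25 not called had it. This split did not hold in every setting. With equal totals, PSMC4 and PSMD13 were called lower without the box, so that 8 of 10 matched members called lower had it. With a variance trend, 3 of 11 called higher had it (PSMB2, PSMC2 and PSMD14) and 7 of 10 called lower. At an adjusted p under 0.05 it was 3 of 13 higher and 8 of 11 lower. PSMC2 was also called higher, with the box, after scaling by the median of ratios and with a filter of at least 10 in every library, and without the first DCC-2036 library 2 of 9 higher and 6 of 7 lower had it. Over all tested symbols with a window, 45.8% of those called lower and 39.0% of those called higher had it. The 19 tested members with the box had a median log2 change of -0.29, from -1.28 (PSME3) to 0.53 (PSMD14). The 19 without it had a median of 0.27, from -0.67 (PSMD5) to 1.22 (PSMD9). These medians are in deposited units and also depend on the scaling. PSMD1, the member at the median without the box, was at 0.07 with equal totals, and the median over all symbols moved from -0.09 to -0.29. Members with the box moved down as well, for example PSMB5 from -0.90 to -1.09, so the shift is common to members with and without it. Over all symbols, the medians in deposited units were -0.14 with the box and -0.06 without. These are matches of letters, listed here after the calls were known and without a test.

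The boxes of PSMB5, PSMC3 and PSME3 are among the capitals in the sequences above, with the first base at -164, -114 and -12 from the start. Those of the other matched members that fell are shown with 12 bases on each side and the box, or its reverse ATTGG, in capitals. They lie at chr15:78540575-78540603, plus strand for PSMA4, at chr17:42578026-42578054, minus strand and chr17:42577767-42577795, minus strand before 2 alternative starts of PSMC3IP, and at chr21:39183670-39183698, minus strand for PSMG1.
PSMA4: ggccgctttcccATTGGgcgggggtcgtg
PSMC3IP: ctgaagcgtcttCCAATcccaacattaga
PSMC3IP: cttccccttcagCCAATcaccgttcgagg
PSMG1: agaccccctcccCCAATctgtaatttaaa

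**Figure D4:**
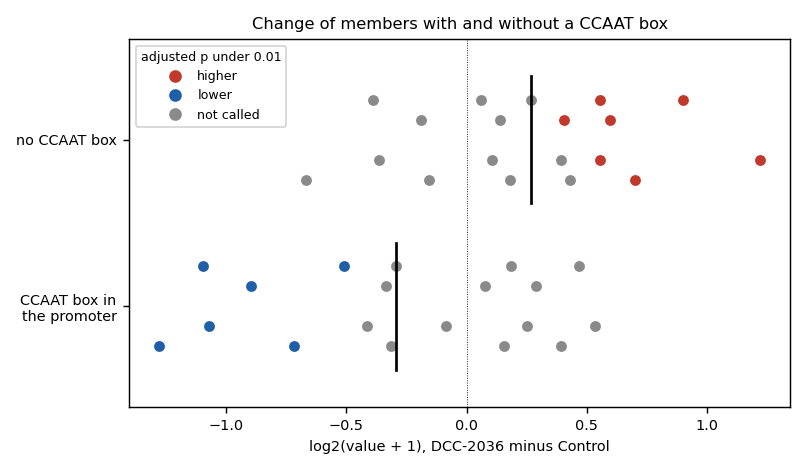
Log2 change (DCC-2036 minus Control, log2(value + 1)) of the 38 tested members with a RefSeq promoter window, split by whether a CCAAT box is in any window of the gene; the vertical bars are medians and the heights of points within a row carry no value. At an adjusted p under 0.01 the 6 members called lower stand in the row with the box and the 7 called higher in the row without it, members not called are in both rows, and with equal totals PSMC4 and PSMD13 are called lower without the box.

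Genes that serve the proteasome without a PSM name were followed as a list of 36, all tested. Of these, 9 rose and 2 fell, or 30.6% where 41.9% of all symbols were called, with a median log2 change of 0.23. The genes on either side of this median, ZFAND5 (0.21) and VCP (0.25), were at 0.0106 and 0.0491 with equal totals. With equal totals, 6 of the list were higher and 2 lower, without UBE3A (0.50), RAD23B (0.46) and NFE2L2 (0.58) among those higher. Leaving out a library gave 2 to 13 higher and 1 to 3 lower, with 2 higher without the first Control or the second DCC-2036 library and 3 without the second or the third Control library, and the replicate block gave 4 higher and 1 lower. Among the intrinsic subunits and builders outside the naming rule, ADRM1 (Rpn13), the ubiquitin receptor beside PSMD2 and PSMD4, had 5364, 6157 and 6630.5 with vehicle and 9564, 11673 and 14094 with DCC-2036. ADRM1 rose by 0.95 ± 0.17 (SE, n = 3 per group, limma adjusted p = 0.00382). The small lid subunit SEM1 was at 0.59 (limma adjusted p = 0.0112) and POMP, the maturation chaperone of the core, at 0.36 (limma adjusted p = 0.0282). PAAF1, which escorts the ATPases beside PSMD10, had 243, 242 and 227 with vehicle and 133, 139.6 and 133 with DCC-2036. PAAF1 fell, with a change of -0.81 ± 0.09 (SE, n = 3 per group, limma adjusted p = 0.000852), the lowest of the list.

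Those that rose included genes for proteins that dock on the proteasome. They were the deubiquitinase USP14 (0.81), the thioredoxin-like TXNL1 (1.10), the ubiquitin ligase UBE3A (0.69), the adaptor ECPAS, listed as KIAA0368 (0.89), and the shuttles RAD23B (0.66) and UBQLN1 (0.70). The AN1-type zinc finger gene ZFAND2A, known to be induced by arsenite, was the highest of the list, with 236, 246 and 288 with vehicle and 649, 692 and 954 with DCC-2036. It rose by 1.56 ± 0.18 (SE, n = 3 per group, limma adjusted p = 0.000804). Of the proteasome's regulators, NFE2L2 rose (0.78, limma adjusted p = 0.00961) and NFE2L1 did not pass at -0.35 (limma adjusted p = 0.0379). The call of NFE2L2 lay close to the threshold and was lost in most other settings. It was lost with equal totals, equal upper quartiles, no filter, pseudocount 0.1, the replicate block and transcripts summed. It was also lost whichever Control library was left out, and without DCC-2036 replicate 2. The log2 change of NFE2L2 lay between 0.58 and 0.94 over these settings.

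The inducible subunits that replace the catalytic subunits in the immunoproteasome were low. PSMB8, which takes the place of PSMB5, was below 10 in all 6 libraries and was not tested. PSMB9, which takes the place of PSMB6, reached at most 24.5, and PSMB10, which takes the place of PSMB7, had 408, 472 and 478 with vehicle and 322, 345 and 375 with DCC-2036. PSMB9 was at 0.38 and PSMB10 at -0.38, and neither passed (limma adjusted p = 0.0789 and 0.028).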

How the data were processed

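RNA was sequenced from 6 libraries of LoVo cells, grouped by title. The authors deposited a normalized signal per RefSeq transcript and library; aligner, build and normalization are not given in the sources used here. The log2 fold changes, p-values and q-values that the authors deposited were not used. The table has 45006 transcripts and 0 unused columns per sample. A count test had been planned for whole counts; since the values are not whole, limma 3.58.1 (R 4.3.3) was fitted to log2(value + 1) over the 12725 symbols with at least 10 in at least 3 libraries, without covariates, with two-sided p-values adjusted by Benjamini-Hochberg over all of them. Calls use an adjusted p under 0.01. The fit was tested on simulated data. Member lists, partner pairs and words were chosen with earlier results of these data known. Values in every library are given for the highest and the lowest member of each structural group, for members called against most of their group and for the catalytic subunits. Of the related genes, ADRM1, SEM1, POMP, PAAF1, NFE2L1, the highest and the lowest were named by rule, and the others after their values were seen. Some genes of that list are counted but not reported here by name. Ratios within a library were compared by exact permutation (scipy 1.17.1, Python 3.11.15). Alternatives covered scaling, filter, pseudocount (0.1), variance trend, replicate block, transcript choice, thresholds and left-out libraries.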

Additional observations from a re-analysis of the deposited data

How the results depend on the processing

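With equal library totals, 2 members were called higher and 12 lower, in place of 8 and 7, the median of the core was 0.0715, of the cap -0.12, of the assembly factors -0.39 and of the other caps -0.0170, and the log2 changes of PSMB4 (-0.0575), PSMB6 (-0.0342), PSMC1 (-0.0938), PSMC6 (-0.139), PSMD10 (-0.0125), PSMD6 (-0.121), PSMD7 (-0.0413) and PSME2 (-0.0170) turned below 0. Scaling by the median of ratios put the median of all symbols at -0.0094, of the cap at 0.16 and of the assembly factors at -0.11. Without a filter, 2 members were called higher and 5 lower, where 23.4% of all symbols were called. With a variance trend, 13 were higher and 12 lower, where 48.6% of all symbols were called. At an adjusted p under 0.05, 16 were higher and 13 lower, where 62.2% of all symbols were called. With a log2 change of at least 1, the counts were 1 and 3, where 7.42% of all symbols were higher and 15.2% lower. With each transcript as its own row, added after seeing the data, 23 of 103 tested member transcripts were higher and 24 lower. Transcripts of a gene share reads, and the share of all transcripts called in that fit was not counted. Same-numbered libraries did not deviate together over all tested symbols (correlations 0.081, -0.035 and -0.0033). With 3 libraries per group these values cannot decide whether the numbers mark paired cultures, and no label says so. With the replicate block 2 members were called higher and 4 lower, where 24.4% of all symbols were called. Leaving out a library gave 1 to 11 called higher and 4 to 9 lower, while the share of all symbols called ran from 19.2% to 48.4%. The fewest were left without the first or second Control library (1 higher and 4 lower each); without the third Control library there were 2 and 4, and without the second DCC-2036 library 3 and 4, and in these 4 fits 19.2% to 20.3% of all symbols were called. The median of the core then lay between 0.21 and 0.32, of the cap between 0.0193 and 0.12, of the assembly factors between -0.23 and -0.15 and of the other caps between 0.0668 and 0.28. The cause of these changes was not tested. DESeq2 was not run, since it needs counts.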

Other observations

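Most members had further transcripts in the table. Of 103 tested member transcripts, the transcripts of 30 members with more than 1 gave the same direction in each member, and their calls differed in 3, PSMC2, PSMC3IP and PSMG4. The spread of log2 changes within a member had a median of 0.02. PSMG4 had the widest, 0.37, with 0.35, 0.70 and 0.72 for its 3 transcripts, whose means in Control were 163, 188 and 45.0. Both transcripts of PSMD9 rose, by 1.22 and 1.17 in a limma fit with each transcript as its own row (adjusted p = 0.000342 and 0.000885). Transcripts of a gene share reads and are not independent.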
